A study of Mus musculus with 6 samples.

Results

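Toll-like receptors and the first steps of their signalling were followed in germinal centre B cells of the mouse spleen, as 10 genes picked by name from the deposited count table of 23412 rows: the receptor genes Tlr1, Tlr2, Tlr3, Tlr4, Tlr6, Tlr7 and Tlr9, the chaperone gene Unc93b1, the adaptor gene Myd88 and the kinase gene Irak4. All 10 were in the table and all 10 passed the filter on low counts. Tlr7, the receptor for single-stranded RNA, rose 2.82-fold in the DAF-TM libraries (log2 fold change 1.50, SE 0.34, edgeR adjusted p = 0.00588), and the other 9 genes did not pass the test. The call of Tlr7 rested on 31 to 33 counts in each control library and held in 7 of 14 alternative fits. Its difference was positive in all 14, which reuse the same libraries.

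Cells that carried B220, GL7 and Fas were sorted from the spleen on day 10 after injection of sheep red blood cells. Control mice were Cg1-cre(+/-). The other group was Cg1-cre(+/-);DAF-TM(fl/fl), in which a DAF-TM cassette at the Rosa26 locus needs Cre to be switched on; the header of the count table writes the controls as DAF-tg (+/+), and all animals of both groups carried Cre. Cg1-cre is driven from an immunoglobulin constant region gene that is transcribed in activated B cells, and DAF, the product of Cd55 in the mouse, limits complement activation on the cell surface. The sources used here give neither the age of the mice nor whether a library is 1 animal or a pool, so the p-values refer to these libraries. The labels give 3 samples a group, but 2 of the DAF-TM columns, replicates 2 and 3, did not differ in any of the 23412 rows. As copies of the same counts they were used as 1 sample, DAF-TM library 2. Total counts ran from 7257339 to 12783965 in the 3 control and 2 DAF-TM libraries. Cd55 stood at 23.5 to 34.4 normalised CPM (counts scaled to a common library size) in the controls and at 713 and 726 in the DAF-TM libraries, so the libraries matched their labels. None of 14 markers of germinal centre B cells was at 0 in every library, and they had a summed level of 13268 to 15853 CPM in the controls and of 13308 and 12209 in the DAF-TM libraries. Libraries of 1 group differed in Xist, which is transcribed from the inactive X of females: it stood at 759 CPM in control library 1, at 2.63 and 2.86 in control libraries 2 and 3, and at 297 and 720 in the DAF-TM libraries. DAF-TM library 1 held both Xist and Y-linked reads, with Ddx3y at 141 CPM. The spread within a group therefore includes this difference.

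Toll-like receptors recognise parts of microbes and, in some settings, nucleic acids of the body's own cells. TLR2 with TLR1 or TLR6 binds lipoproteins and TLR4 with MD-2 binds bacterial lipopolysaccharide, all at the cell surface, while TLR3, TLR7 and TLR9 bind double-stranded RNA, single-stranded RNA and unmethylated DNA inside endosomes, where the chaperone UNC93B1 brings them. All of these receptors except TLR3 recruit the adaptor MYD88, which assembles the kinase IRAK4 and its relatives and leads to NF-κB and interferon regulatory factors. In B cells TLR7 and TLR9 act together with the antigen receptor, and they are studied for their part in germinal centre reactions and in antibodies against nuclear antigens.

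**Figure D1:**
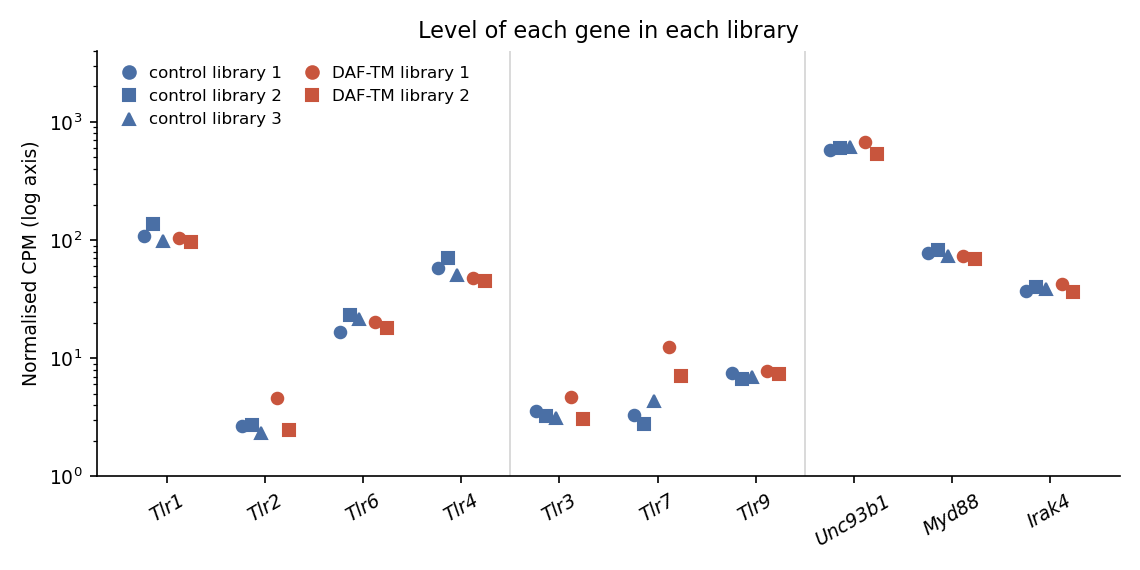
Normalised CPM of the 10 genes on a log axis, 1 point for each of the 3 control libraries (blue) and 2 DAF-TM libraries (red). The grey lines separate surface receptors, endosomal receptors and signalling genes. Tlr7 is the gene whose DAF-TM points, at 12.4 and 7.02, both lie above all its control points, while Unc93b1 stands near 600 in both groups.

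In control cells the chaperone was by far the most abundant of the 10 transcripts. Levels between genes were compared as CPM per kilobase of exon. Unc93b1 stood at 265 ± 7.54 CPM per kilobase (SD, n = 3), followed by Myd88 at 39.7 ± 2.13 and Tlr1 at 36.7 ± 6.10, whose ranges over the control libraries overlapped. Below them came Tlr4 at 10.9 ± 1.81, Irak4 at 8.10 ± 0.25, Tlr6 at 5.59 ± 0.90 and Tlr9 at 2.03 ± 0.12, each with a range that did not touch that of the next. The lowest 3 were Tlr7 at 0.879 ± 0.20, Tlr2 at 0.850 ± 0.071 and Tlr3 at 0.740 ± 0.055, whose ranges overlapped from each to the next. In the DAF-TM libraries Tlr7 stood at 2.46 ± 0.97 (SD, n = 2) and Tlr9 at 2.19 ± 0.10, with overlapping ranges, and Tlr4 and Irak4 overlapped too, at 8.48 ± 0.25 and 8.32 ± 0.94. Tlr7 came just above Tlr9 in these means. The other genes kept the order of the controls, and the ranges of Tlr2 and Tlr3 again overlapped.

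Tlr1 made up most of the receptor transcripts. Of the summed CPM per kilobase of the 7 receptor genes, Tlr1 took 63.6%, 65.0% and 61.7% in control libraries 1 to 3 and 59.9% and 62.2% in the DAF-TM libraries. The 4 surface receptors together took 92.6% to 95.0% in the controls, against 88.4% and 90.7% in the DAF-TM libraries, so that the endosomal share was 5.02% to 7.40% and 11.6% and 9.26%. These shares are given without a test.

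Tlr1 and Tlr6 are neighbours on chromosome 5 of GRCm38, at 64924679 to 64933563 and 64952031 to 64960097 (GENCODE vM21), and their coding sequences are identical at 75.6% of 2360 aligned positions. They share a stretch of 229 identical bases, longer than the 100 nt reads, and of all 100 nt windows of their transcripts 7.89% for Tlr1 and 7.09% for Tlr6 occur in the other gene. The stretch is shown because a read that falls inside it cannot be given to either gene by its letters. Both are on the minus strand, Tlr1 at chr5:64925517-64925785 and Tlr6 at chr5:64953808-64954076, within the coding part of 1 exon, and were read from GENCODE transcripts. The capitals mark the shared bases, with 20 bases of each gene on either side.
Tlr1: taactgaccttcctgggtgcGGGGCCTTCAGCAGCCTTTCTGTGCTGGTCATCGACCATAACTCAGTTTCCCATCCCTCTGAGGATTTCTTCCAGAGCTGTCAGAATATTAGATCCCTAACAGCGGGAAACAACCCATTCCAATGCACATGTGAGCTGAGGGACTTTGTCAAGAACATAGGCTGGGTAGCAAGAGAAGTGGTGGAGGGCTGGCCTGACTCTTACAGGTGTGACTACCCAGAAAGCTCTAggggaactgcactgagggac
Tlr6: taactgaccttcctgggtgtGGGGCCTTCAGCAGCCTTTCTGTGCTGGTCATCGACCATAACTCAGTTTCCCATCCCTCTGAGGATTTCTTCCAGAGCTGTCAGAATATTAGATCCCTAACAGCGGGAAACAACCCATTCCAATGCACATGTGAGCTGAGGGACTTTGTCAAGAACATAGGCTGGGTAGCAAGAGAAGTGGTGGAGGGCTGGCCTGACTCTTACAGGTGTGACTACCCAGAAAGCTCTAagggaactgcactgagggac

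Tlr1, which pairs with TLR2 to bind triacylated lipoproteins, stood at 109, 136 and 98.9 CPM in control libraries 1 to 3 and at 103 and 95.7 in the DAF-TM libraries. Control library 2 was the highest, and the DAF-TM values overlapped the controls (log2 fold change -0.20 ± 0.17 SE, adjusted p = 0.947). Tlr6, the partner for diacylated lipoproteins, stood at 16.8, 23.3 and 21.6 CPM in the controls and at 20.4 and 18.2 in the DAF-TM libraries, both inside the range of the controls (-0.09 ± 0.21, adjusted p = 0.976). With the counts of both genes added into 1 row, an alternative chosen after seeing the data, the log2 fold change was -0.19 (edgeR adjusted p = 0.949).

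Tlr2, the common partner of both, was close to the lowest level of the 10 genes. On chromosome 3 (83836272 to 83841767), it had 25, 32 and 17 counts in the controls, against 51 and 29 in the DAF-TM libraries, or 2.65, 2.72 and 2.32 CPM and 4.60 and 2.45 CPM. DAF-TM library 1 alone stood above the controls, while library 2 lay among them (log2 fold change 0.45 ± 0.43 SE, adjusted p = 0.949). Without DAF-TM library 1 the value was -0.08.

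Tlr4, the lipopolysaccharide receptor, had the lowest log2 fold change of the 10 genes. It lies on chromosome 4 (66827584 to 66930284) and stood at 58.5, 70.1 and 50.3 CPM in the controls and at 47.3 and 45.4 in the DAF-TM libraries. Both DAF-TM libraries were below all 3 controls, by a difference that did not pass over all genes (log2 fold change -0.37 ± 0.17 SE, unadjusted p = 0.0335, adjusted p = 0.829). Markers of germinal centre B cells also had mostly negative values: 13 of 14 were below 0 with a median of -0.18, against 0.03 over all 18767 genes tested, and none was called. For 7 of the 14 both DAF-TM libraries were below all controls, where 9.02% of all genes were. The part of these markers in the value of Tlr4 was not tested. In RNA of sorted cells in bulk, fewer cells of a type and less RNA per cell cannot be told apart. Of the genes that work with TLR4, Ly96, which encodes MD-2, stood at 19.2 to 27.9 CPM in the controls and at 26.6 and 20.2 in the DAF-TM libraries (0.02 ± 0.20 SE, adjusted p = 0.997).

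Tlr3, on chromosome 8 (45395665 to 45411080), senses double-stranded RNA and signals through TRIF in place of MYD88. It had 34, 38 and 23 counts in the controls, against 52 and 36 in the DAF-TM libraries, or 3.60, 3.23 and 3.14 CPM and 4.69 and 3.04 CPM. As with Tlr2, DAF-TM library 1 was the highest of the 5, while library 2 was here the lowest, and the groups overlapped (log2 fold change 0.21 ± 0.40 SE, adjusted p = 0.970; -0.13 without DAF-TM library 1). A noncoding gene on the other strand, Gm45542, overlaps 2.61% of its exon bases, and the sources used here do not give the strand setting of the counting.

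Tlr7, on chromosome X (167304929 to 167330558), was the 1 gene of the 10 that passed. It had 31, 33 and 32 counts in control libraries 1 to 3 and 138 and 83 in DAF-TM libraries 1 and 2. These amounted to 3.28, 2.80 and 4.37 normalised CPM in the controls and to 12.4 and 7.02 normalised CPM in the DAF-TM group. Both DAF-TM values were above every control, and library 1 stood 1.77-fold above library 2. Exact 95% Poisson intervals, which cover counting error only, ran from 2.99 to 6.16 CPM in control library 3, the highest control, and from 5.59 to 8.70 in DAF-TM library 2, the lower DAF-TM library, so these neighbours overlapped. The interval of DAF-TM library 1 ran from 10.5 to 14.7. Relative to the control mean of 3.48 ± 0.80 CPM (SD, n = 3), the DAF-TM libraries stood 3.57-fold and 2.01-fold higher.

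Over all genes tested, edgeR called 77 of 18767, or 0.41%: 0.373% were called higher and 0.0373% lower. Among the 10 genes 1 was called higher and 0 lower. By an unadjusted p under 0.05, 2 of the 10 were below, Tlr7 and Tlr4, against 5.74% of all genes. The libraries of the groups did not overlap for 1 gene that was higher, Tlr7, where 11.3% of all genes were higher without overlap, and for 2 that were lower, Tlr4 and Myd88, where 9.02% were lower without overlap. The median log2 fold change was 0.03 over the 10 genes and 0.03 over all genes tested.

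**Figure D2:**
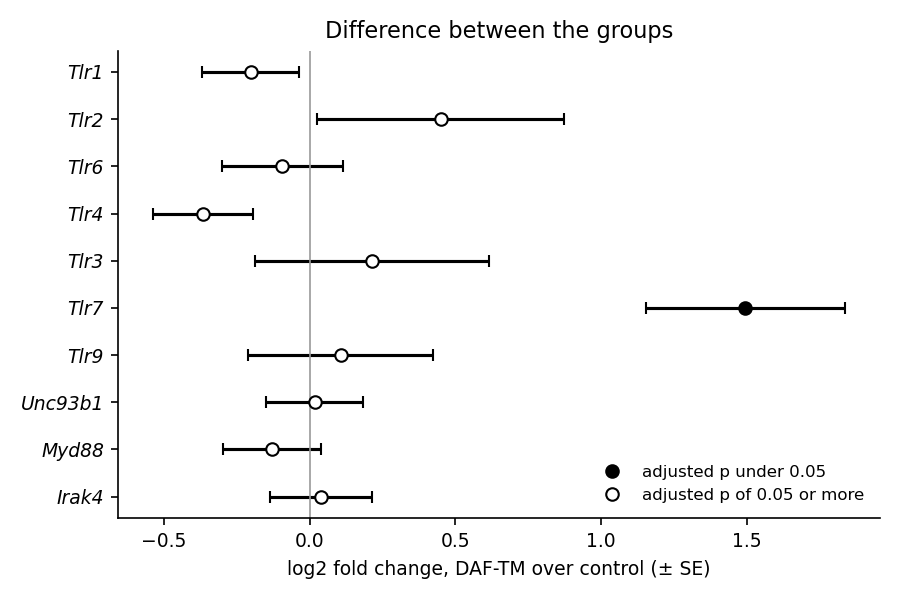
Log2 fold change of each of the 10 genes, DAF-TM over control, with its SE from edgeR over 3 control and 2 DAF-TM libraries. The filled point is Tlr7 at 1.50; the open points of the other 9 genes lie between -0.37 for Tlr4 and 0.45 for Tlr2.

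The call of Tlr7 depended on single libraries, on the scaling and on the tool. Its direction stayed the same, but the alternatives reuse the same libraries. Both DAF-TM values were above every control, so leaving out 1 library could hardly reverse the sign. With DAF-TM library 1 left out the log2 fold change was 1.02 (adjusted p = 0.518), and without DAF-TM library 2 it was 1.85 (0.000921). The call was also lost without control library 1 (1.46, adjusted p = 0.112) and without control library 2 (1.35, 0.0860), but not without control library 3 (1.69, 0.0278). Limma-voom called the gene (1.46, adjusted p = 0.0346) and DESeq2 did not (1.47, 0.0655). Upper-quartile scaling gave a log2 fold change of 1.54 (edgeR adjusted p = 0.101), and the fit with the replicate number as a block gave 1.62 (0.0952). In the block fit control library 3 was alone in its block and did not inform the difference.

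**Figure D3:**
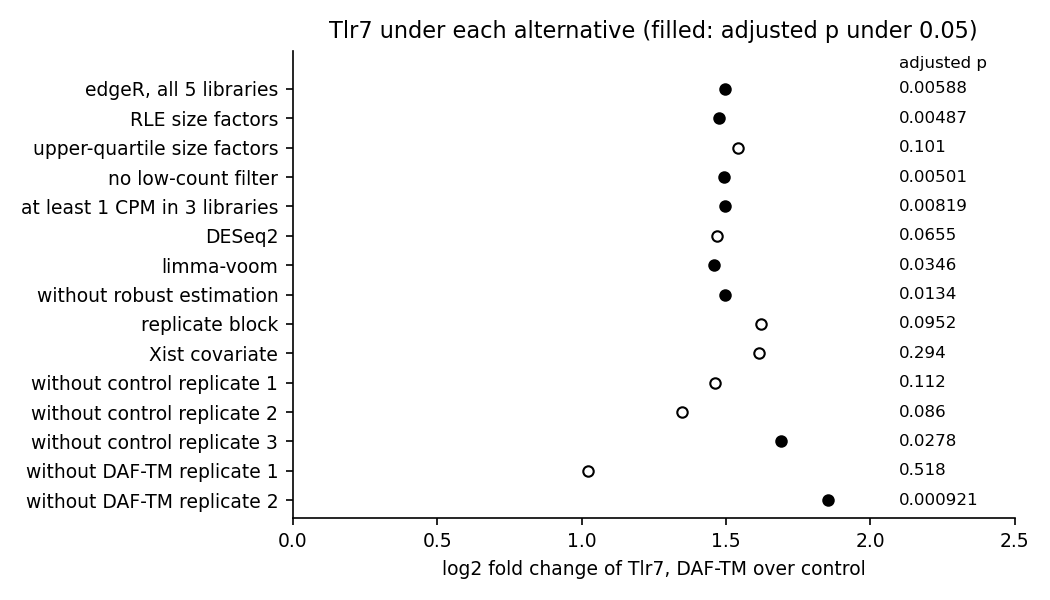
Log2 fold change of Tlr7, DAF-TM over control, in the fit of all 5 libraries and in 14 alternatives, with the adjusted p of each at the right. Filled points passed an adjusted p of 0.05. All points lie between 1.02 and 1.85, and 7 of the 14 alternatives are filled.

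Because Tlr7 is X-linked and the libraries differed in Xist, it was set beside that RNA. Among the controls the library with Xist at 759 CPM had Tlr7 at 3.28, between the 2.80 and 4.37 of the libraries with Xist below 3. DAF-TM library 2, with Xist at 720, had 2.14 times the Tlr7 level of control library 1. With log2 Xist as a covariate the log2 fold change of Tlr7 was 1.62 and was not called (edgeR adjusted p = 0.294).

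Another endosomal receptor of the same libraries gave a measure within each library. The ratio of Tlr7 to Tlr9, each per kilobase, was 0.383, 0.367 and 0.551 in the controls, against 1.39 and 0.837 in the DAF-TM libraries. Both DAF-TM libraries were above all controls in this ratio, and in library 1 the ratio was above 1. Tlr8, the neighbour of Tlr7 and its closest relative by sequence among the mouse receptors, was near the floor, at 0.170 to 1.09 CPM in the controls and at 1.17 and 1.61 in the DAF-TM libraries (log2 fold change 1.06 ± 0.67 SE, adjusted p = 0.945).

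The pair is shown because reads of relatives can be mistaken for each other. No 100 nt window of the Tlr7 transcripts occurred in the transcripts of any other gene. The longest stretch that the coding sequences of Tlr7 and Tlr8 have in common is 13 bases, in capitals below, in windows of 100 nt, 1 read length, from GENCODE transcripts on the minus strand at chrX:167305482-167305581 and chrX:167242909-167243008. Within these windows the pair is identical at 64 positions.
Tlr7: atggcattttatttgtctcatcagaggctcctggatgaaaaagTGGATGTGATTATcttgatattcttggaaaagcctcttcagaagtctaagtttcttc
Tlr8: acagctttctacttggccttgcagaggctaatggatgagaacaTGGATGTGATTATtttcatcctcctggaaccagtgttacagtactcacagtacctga

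Tlr7 is also transcribed in cells other than B cells, such as plasmacytoid dendritic cells and macrophages, so markers of other cells were set beside it. Of 17 macrophage and monocyte markers 4 rose (Csf1r, C1qb, Vcam1 and Slc40a1), none fell and 13 did not pass, with a median log2 fold change of 0.63. Of all genes tested, 0.373% were called higher. For 9 of the 17 both DAF-TM libraries were above all controls, where 11.3% of all genes were. Their summed level was 109 to 179 CPM in the controls, against 236 and 142 in DAF-TM libraries 1 and 2. Lyz2 made up 37.2% of that sum, and without it the sum was 64.0 to 83.0 CPM in the controls, against 179 and 109 in the DAF-TM libraries.

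Of 12 dendritic cell markers 1 rose, Siglech, a surface lectin of plasmacytoid dendritic cells, from 2.65, 2.89 and 3.55 CPM to 10.9 and 8.54 (log2 fold change 1.69 ± 0.35 SE, adjusted p = 0.000932), and 11 did not pass. The share called higher over all genes was 0.373%. For 5 of the 12 both DAF-TM libraries were above all controls, where 11.3% of all genes were. Ccr9, a chemokine receptor of the same cells, stood at 5.19, 5.35 and 7.50 CPM and at 12.0 and 10.9 (0.94 ± 0.30, adjusted p = 0.252). The list summed to 320 to 358 CPM in the controls and to 401 and 310 in the DAF-TM libraries. Tcf4, Flt3 and Irf4 made up 85.7% of this sum, and B cells transcribe Tcf4 and Irf4 too. Without these 3 genes the sum was 34.5 to 44.3 CPM in the controls, against 68.1 and 59.3 in the DAF-TM libraries.

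Natural killer cell markers had the most calls of these lists: 8 of 12 rose (Ncr1, Klrb1c, Klrd1, Klrk1, Gzma, Nkg7, Il2rb and Ctsw) and none fell. Over all genes tested, 0.373% were called higher. The sum was 54.6 to 89.9 CPM in the controls, against 178 and 92.9 in the DAF-TM libraries, and without Tbx21 it was 36.9 to 54.3 CPM, against 141 and 84.1. Of 12 T cell markers 2 rose, Cd3d and Tcf7, and none fell. For 9 of these 12 both DAF-TM libraries were above all controls, where 11.3% of all genes were. For 1, Lck, both were below, where 9.02% of all genes were. The T cell sum was 289 to 316 CPM in the controls, against 285 and 288 in the DAF-TM libraries, but Lck alone made up 83.1% of it, and without Lck it was 31.2 to 42.3 CPM and 71.4 and 64.3. Of 12 neutrophil markers none was called by edgeR. An unadjusted p under 0.05 was found for 2, Camp at -3.20 ± 0.86 and Csf3r at 0.80 ± 0.30, against 5.74% of all genes. The neutrophil sum was 91.5 to 292 CPM in the controls, against 35.3 and 88.7 in the DAF-TM libraries. For 3 of the neutrophil markers both DAF-TM libraries were below all controls, where 9.02% of all genes were.

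No marker in these lists was at 0 in every library. Leaving out the most abundant genes as above was a choice made after seeing the data. The macrophage, dendritic cell, natural killer and T cell sums were then above all controls in both DAF-TM libraries. They were highest in library 1, as Tlr7 was. Of the genes left out, Lyz2 (-0.65), Tcf4 (-0.11), Flt3 (-0.16), Tbx21 (-0.38) and Lck (-0.26) had negative log2 fold changes, and Irf4 (0.48) a positive one. With full lists, both T cell sums and the dendritic cell sum of DAF-TM library 2 were below all controls. The full macrophage sum of that library lay among the controls. Without S100a8, S100a9 and Ngp the neutrophil sum was 30.9 to 110 CPM in the controls, against 22.7 and 46.3. The part of these cells in the level of Tlr7 was not tested.

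**Figure D4:**
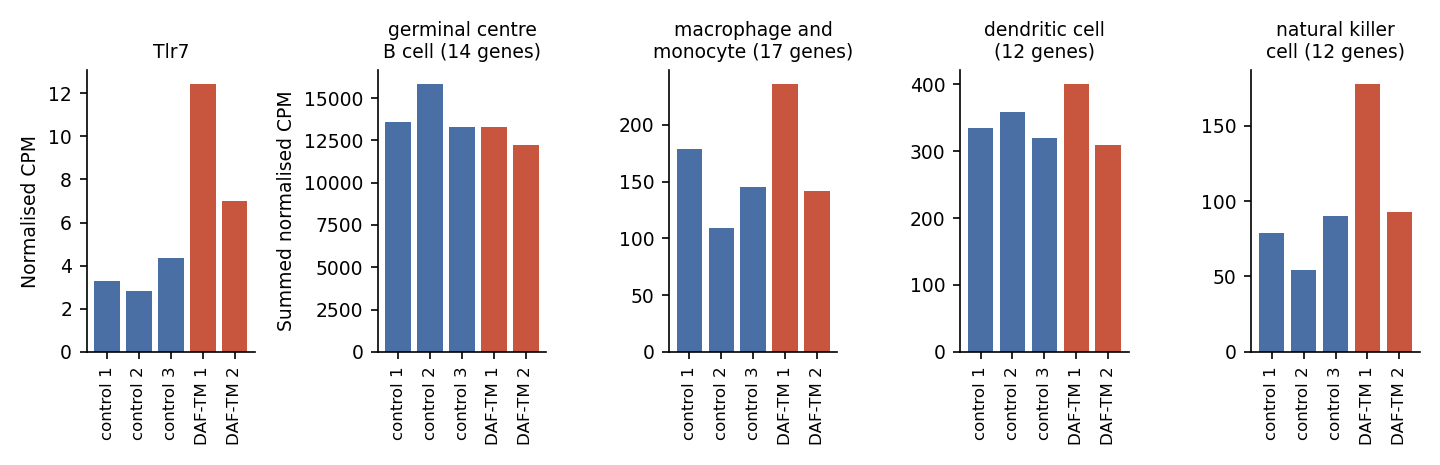
Normalised CPM of Tlr7 (left) and summed normalised CPM of 4 marker lists in each library, controls in blue and DAF-TM in red, with all axes from 0. DAF-TM library 1 is the highest in Tlr7 and in the macrophage, dendritic cell and natural killer cell lists; DAF-TM library 2 has the second highest Tlr7, at 7.02 CPM. The sums are carried by a few abundant genes, such as Tcf4 in the dendritic cell list.

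Among 17762 genes with a mean of at least 1 CPM, those with a pattern closest to Tlr7 over the 5 libraries, by the root mean square difference of centred log2 CPM, were Ncr1, which encodes a natural killer cell receptor (difference 0.099), Hopx (0.123) and Krt80 (0.175). Ncr1 stood at 2.22, 2.38 and 3.41 CPM in the controls and at 10.3 and 5.16 in the DAF-TM libraries (log2 fold change 1.54, adjusted p = 0.0128). Hopx had a log2 fold change of 1.44 (adjusted p = 0.148) and Krt80 of 1.74 (0.0975).

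Tlr9, the receptor for unmethylated DNA on chromosome 9 (106222598 to 106226883), did not differ beyond its error. It had 71, 79 and 51 counts in the controls, against 87 and 87 in the DAF-TM libraries, or 7.52, 6.71 and 6.96 CPM and 7.85 and 7.36 CPM. The groups overlapped, and the spread in the controls was 5.89% of their mean (log2 fold change 0.11 ± 0.32 SE, adjusted p = 0.983). Tlr7 was thus 1.50 and Tlr9 0.11 on the log2 scale, and the difference between the receptors was not tested.

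Unc93b1, on chromosome 19 (3935186 to 3949340), carries TLR3, TLR7 and TLR9 from the endoplasmic reticulum to endosomes. It stood at 582, 601 and 616 CPM in the controls and at 679 and 535 in the DAF-TM libraries. The DAF-TM libraries lay on either side of all 3 controls, and their mean did not differ beyond that spread (log2 fold change 0.02 ± 0.17 SE, adjusted p = 0.995; -0.0072 with RLE scaling). Per kilobase Unc93b1 stood 67.7, 79.1 and 71.5 times above the sum of Tlr3, Tlr7 and Tlr9 in the controls. In the DAF-TM libraries it stood 46.5 and 51.7 times above that sum. Further receptor genes, such as Tlr8 and Tlr13, were left out of the sum.

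Myd88, on chromosome 9 (119335934 to 119341411), stood at 77.2, 82.1 and 73.8 CPM in the controls and at 73.7 and 68.6 in the DAF-TM libraries. The groups did not overlap, by a margin between 73.8 and 73.7 CPM, and the gene did not pass (log2 fold change -0.13 ± 0.17 SE, adjusted p = 0.956). Of its 100 nt windows 4.69% occur in transcripts of Acaa1a. Irak4, the kinase that MYD88 recruits first, on chromosome 15 (94543643 to 94581815), stood at 37.4, 39.7 and 38.5 CPM and at 42.7 and 36.5. As for Unc93b1, the DAF-TM libraries lay above and below all controls (0.04 ± 0.18, adjusted p = 0.985). Twf1, on the other strand, overlaps 7.9% of its exon bases.

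Beyond these 10 genes, 97 further genes of the pathway were counted in 7 lists, and 96 were tested. With edgeR 0 were called. At an unadjusted p under 0.05 there were 12, or 12.5%, against 5.74% of all genes. The median log2 fold change of the 96 was -0.01, with 48 positive and 48 negative. DESeq2 and limma-voom also called 0 of them. Without DAF-TM library 2 edgeR called 1, Hsp90b1, the chaperone GP96 that folds the receptors, which stood at 716 to 804 CPM in the controls and at 1325 and 604 in the DAF-TM libraries.

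**Figure D5:**
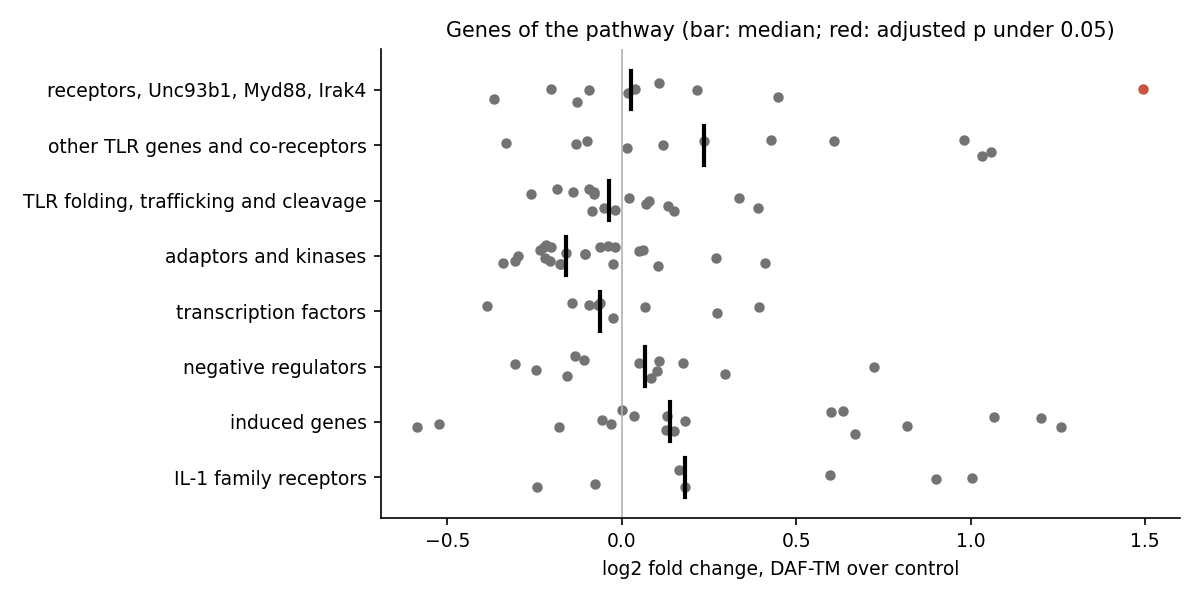
Log2 fold change, DAF-TM over control, of every tested gene in 8 lists, 1 point a gene, with the median of each list as a bar. The red point is Tlr7; no gene of the other 7 lists passed, and the list medians lie between -0.16 for adaptors and kinases and 0.24 for other receptors and co-receptors.

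Of 11 further receptor and co-receptor genes none passed (8 positive, median 0.24). Ly86, which encodes MD-1, had the highest level per kilobase, at 226 to 296 CPM in the controls, against 245 and 248 in the DAF-TM libraries (log2 fold change -0.10 ± 0.17 SE). Its partner Cd180, a receptor-like protein of B cells, was at 111 to 150 CPM and at 115 and 99.9 (-0.33 ± 0.17, adjusted p = 0.860). Tlr13, a receptor for bacterial ribosomal RNA, was at 0.849 to 4.03 CPM and at 4.60 and 4.23 (1.03 ± 0.42, adjusted p = 0.701). Tlr5, Tlr11 and Tlr12 had log2 values of 0.98, -0.13 and 0.43, at mean levels under 5 CPM in the controls. Of the further pathway genes, those named here and below that are not called the highest or most abundant per kilobase were singled out after their values were seen.

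The list for receptor folding, trafficking and cleavage also held other endosomal genes, such as the nucleases Pld3 and Dnase2a. Of its 16 tested genes none passed, and none had an unadjusted p under 0.05 (7 positive, median -0.04). Hsp90b1, the most abundant per kilobase, had a log2 fold change of 0.34 ± 0.18 SE (adjusted p = 0.909). Ctss, the protease cathepsin S and the next most abundant, was at 256 to 364 CPM in the controls and at 309 and 260 in the DAF-TM libraries (-0.05 ± 0.17). Rnaset2a was at 0 counts in all 5 libraries and Rnaset2b at 17.3 to 77.3 CPM in the controls, and the sources used here do not say how the counting split this near-identical pair.

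Adaptors and kinases had mostly negative values: 18 of 23 were below 0 with a median of -0.16, none was called and none had an unadjusted p under 0.05. For 7 of them both DAF-TM libraries were below all controls, where 9.02% of all genes were. For 1, Ikbke, both were above, where 11.3% of all genes were. The most abundant per kilobase were Btk, the kinase of the B cell receptor, at 266 to 314 CPM and at 267 and 226 (-0.22 ± 0.17 SE), and Pik3ap1, an adaptor that links receptors to PI3K, at 265 to 283 CPM and at 241 and 206 (-0.30 ± 0.17, adjusted p = 0.910). Of the 7, Traf6, the ubiquitin ligase that follows the IRAK kinases, had 79.5 to 90.4 CPM and 76.7 and 59.4 (-0.31 ± 0.17, adjusted p = 0.902), and Tirap, the adaptor that brings MYD88 to TLR2 and TLR4, had 88.7 to 92.6 CPM and 82.8 and 74.9 (-0.20 ± 0.17).

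Of 9 transcription factors none passed (3 positive, median -0.06). At an unadjusted p under 0.05 there were 2, against 5.74% of all genes. Irf8, the most abundant per kilobase, was at 654 to 782 CPM in the controls and at 726 and 628 in the DAF-TM libraries (-0.09 ± 0.17 SE), and Irf5, the next, which acts below MYD88, was at 289 to 301 CPM and at 313 and 254 (-0.06 ± 0.17). The NF-κB genes with an unadjusted p under 0.05 went in opposite directions: Rel, the c-Rel subunit, was at 67.4 to 89.0 CPM and at 66.4 and 58.7 (-0.39 ± 0.17, adjusted p = 0.775), and Nfkb2 was at 74.7 to 97.3 CPM and at 130 and 91.3 (0.39 ± 0.16, adjusted p = 0.730).

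Of 12 negative regulators none passed (7 positive, median 0.07). For 2 of the 12, Irak3 and Nlrc3, both DAF-TM libraries were above all controls, where 11.3% of all genes were. For 1, Tollip (-0.31), both were below, where 9.02% of all genes were. Irak3, which encodes the inhibitory kinase IRAK-M, had 33, 43 and 40 counts in the controls, against 86 and 71 in the DAF-TM libraries, and in CPM both DAF-TM libraries were above all controls (0.72 ± 0.35 SE, unadjusted p = 0.0412, adjusted p = 0.846). Tank and Cyld, the highest per kilobase, had values of -0.13 ± 0.17 and -0.25 ± 0.17.

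Of 18 genes that receptor signalling is known to induce none passed (13 positive, median 0.14). An unadjusted p under 0.05 was found for 5 of them, against 5.74% of all genes. For 5 of the 18 both DAF-TM libraries were above all controls, where 11.3% of all genes were. For 2 others, Plek and Cd86, both were below all controls, where 9.02% of all genes were. Plek, which encodes pleckstrin, was at 816 to 1017 CPM in the controls and at 661 and 542 in the DAF-TM libraries (-0.59 ± 0.17 SE, adjusted p = 0.0975). It and Cd86 were the most abundant per kilobase, and the costimulatory ligand Cd86 was at 326 to 548 CPM and at 297 and 273 (-0.52 ± 0.17, adjusted p = 0.261). Marcks was at 14.9 to 21.0 CPM and at 28.8 and 22.7 (0.60 ± 0.20, adjusted p = 0.334). The chemokine genes Cxcl10 (1.26 ± 0.48, adjusted p = 0.552) and Ccl4 (1.07 ± 0.51, adjusted p = 0.833) were under 5 CPM in every library. Nfkbia, the inhibitor that NF-κB induces, was at 124 to 136 CPM in the controls and at 165 and 116 in the DAF-TM libraries (0.13 ± 0.17).

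Receptors of the interleukin-1 family use MYD88 as well. Of 7 such genes none passed (5 positive, median 0.18). For 3 of the 7 both DAF-TM libraries were above all controls, where 11.3% of all genes were. Il1r2 and Il1rap were the highest per kilobase. Il1rap, the shared chain, was at 12.9 to 16.6 CPM in the controls and at 15.2 and 17.5 in the DAF-TM libraries (0.16 ± 0.23 SE), and Il1r2, the decoy receptor, was at 2.05 to 3.31 CPM and at 1.89 and 3.55. The pair of interleukin-18 receptor chains, Il18r1 at 0.90 ± 0.36 (adjusted p = 0.635) and Il18rap at 1.01 ± 0.47 (adjusted p = 0.829), had both DAF-TM libraries above all controls. Natural killer cells, whose markers were higher in the same libraries, also transcribe these chains, and their part in these values was not tested.

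Promoter windows from RefSeq (GRCm38.p6, 250 bases before to 50 after a start) were matched for 7 of the 10 genes, with 2 windows each for Tlr1 and Tlr6. Tlr4, Tlr7 and Unc93b1 had no matched window and were not searched. The shares given for comparison are counted over windows, not genes. The letters AANNGAAA, a core of interferon regulatory factor sites, were searched on both strands and were found in windows of Tlr1, Tlr2, Tlr3, Tlr6 and Myd88, and in 23.9% of 32851 windows of all genes. The NF-κB motif was in the windows of Tlr2 and Tlr3 and in 8.46% of all, the PU.1 core GAGGAA in windows of Tlr1 and Tlr9 and in 28.3%, and the STAT motif TTCNNNGAA in windows of Tlr1, Tlr6 and Myd88 and in 8.3%. In Myd88 the STAT and interferon regulatory factor matches overlap. These matches describe letters in a window and are not sites shown to be used.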

How the data were processed

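The table that the authors deposited holds raw counts for each gene symbol, not normalised, and its header names mm10 (GRCm38). Per the labels' protocols, oligo-dT primed libraries (SMART-Seq v4) were read as 100 nt single ends, and the tools were HISAT2, featureCounts and bcl2fastq, per the submitters' processing notes. Their versions, the annotation, strand setting and handling of multi-mapping reads: not given in the sources used here.

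Counts of 3 control and 2 DAF-TM libraries were tested across 18767 genes with edgeR 4.0.16 (R 4.3.3; TMM, filterByExpr, robust glmQLFit, two-sided glmQLFTest, Benjamini-Hochberg, threshold 0.05). Where no tool is named, a p-value is from this edgeR fit. The fit had 3 residual degrees of freedom and median prior degrees of freedom of 1153, so the spread was drawn mainly from other genes. Values are TMM-normalised CPM, and exon lengths are those of GENCODE vM21 (basic). Poisson intervals were computed from the read counts and so cover counting error only. The kit has no molecular identifiers, so reads from copies of 1 molecule and from separate molecules could not be told apart. Alternatives were other scalings, filters and tools (DESeq2 1.42.0, limma-voom 3.58.1), a replicate block, Xist as a covariate and leaving out each library. Pattern likeness used a pseudocount of 0.5 CPM. The 10 genes and all lists were chosen with earlier results of these data known. Named genes were the 10, any called gene and the highest 2 per kilobase of each pathway list, the marker sums, and the 3 genes closest to Tlr7 in pattern; others were named after their values were seen.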

Additional observations from a re-analysis of the deposited data

How the results depend on the processing

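Over all genes tested, 77 were called, and separate fits called 39 with upper-quartile scaling, 27 with DESeq2, 51 with limma-voom, 43 with Xist as a covariate, and 14 to 118 when 1 library was left out. Of the 10 genes, the number called higher was 0 with upper-quartile scaling, DESeq2, the Xist covariate and the replicate block, and 0 to 1 when 1 library was left out. The number called lower was 0 throughout. Of the further pathway genes 0 to 1 were called when 1 library was left out. The replicate block (61 genes called) took the call from Tlr7. The labels do not say whether libraries with a shared number belong together. Over genes, deviations from the group means correlated at -0.12 for number 1 and -0.26 for number 2. With 2 DAF-TM libraries those deviations mirror each other, so these values cannot decide whether the numbers pair the libraries. None of the other 9 genes was called in 126 fits under the 14 alternatives, at adjusted p of 0.561 or more. Values near 0 changed sign. Unc93b1 stood at -0.0072 with RLE scaling and -0.018 with DESeq2, and from -0.17 to 0.18 with 1 library left out; Tlr6 stood at 0.16 with the Xist covariate and from -0.22 to 0.0075; Tlr2 from -0.077 to 0.83; Tlr3 from -0.13 to 0.49; and Irak4 from -0.088 to 0.15. The cause was not tested, except that leaving out a library leaves fewer samples. Where 1 DAF-TM library was left out, the lone one was assumed to vary like the controls. Depth limited precision: at 17 to 87 counts a library, Tlr2, Tlr3 and Tlr9 had SEs of 0.43, 0.40 and 0.32 on the log2 scale, against 0.17 to 0.21 for the 6 genes with higher counts.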
